A study of Mus musculus with 8 samples.

Results

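The 10 genes Vegfa, Adm, Ddit4, Ankrd37, P4ha1, Pdk1, Kdm3a, Bnip3, Bnip3l and Ndrg1, targets of the hypoxia-inducible factors (HIF) outside glycolysis, were taken by name from the 56980 genes counted in peripheral blood Tregs after high altitude de-acclimatization (HADA). All 10 are in the count table, and 9 of them had enough counts to be tested among 21991 genes. Both groups were male C57BL/6j mice, 8 weeks old when purchased. For HADA, mice lived for 28 days under low pressure that mimicked 6000 m and were then moved back to normoxia, and control mice had stayed in normoxia. Tregs were sorted from blood by flow cytometry, and each group has 4 libraries. The methods define sorted Tregs as CD4+CD25+, a gate that does not use Foxp3, for the suppression assay, and name no gate for RNA-seq. The day after the return on which cells were sorted for RNA-seq is not given in the sources used here, nor is whether a library holds 1 mouse or a pool, so p-values measure only the spread between these libraries, which may be technical.

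HIF is a pair of proteins, an oxygen-labile alpha subunit and the stable partner ARNT. In normoxia prolyl hydroxylases mark the alpha subunit, the VHL complex binds the mark, and the subunit is degraded. In hypoxia it persists and binds short DNA motifs, ACGTG or GCGTG, near its targets, which beyond glycolysis serve vessel growth, braking of mTORC1, restraint of pyruvate oxidation, collagen hydroxylation, histone demethylation and removal of mitochondria. Several members, such as Ddit4 and Bnip3l, are also under the control of other stimuli, among them glucocorticoids and red cell maturation.

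Total counts were 22929193 to 28240337 in the HADA libraries and 1477431 to 22584062 in the control libraries (p = 0.029 by an exact permutation test, two-sided, which can give no smaller p for 4 against 4). The smallest, control replicate 1, held 1477431 counts and stood apart from the next smallest control at 14452433. The summed level of T cell and Treg markers was 1089 to 2894 CPM (counts brought to one library size by TMM) in HADA and 232 to 923 in control, (p = 0.029, exact permutation test), with Foxp3 at 0 throughout and other genes lying over 100% of its span. Summed myeloid markers were 1689 to 4364 CPM in HADA and 50.1 to 1913 in control (p = 0.0857, exact permutation test). Those of platelets were 267 to 1662 and 42.6 to 474 (p = 0.0857, exact permutation test). Those of B cells, with Ms4a1 listed at 0, were 916 to 3011 and 97.4 to 2379 (p = 0.286, exact permutation test). Markers of cytotoxic and NK cells, which a CD4 gate, if used here, should leave out, were at 7.98 to 91.1 CPM in control. They were at 79.1, 181, 149 and 944 CPM in HADA replicates 1 to 4 (p = 0.0571, exact permutation test). Cd8b1 among them was past the thresholds (log2 fold change 4.97 ± 1.004, edgeR adjusted p = 0.0301), as 1.65% of all genes were in that direction. In bulk libraries fewer cells of a type and less RNA per cell cannot be told apart, and the part of other cell types in the values below was not tested except where stated.

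None of the 9 tested genes was past the thresholds, which are an adjusted p below 0.05 together with a fold change of more than 1 on the log2 scale, against 2.13% of all genes tested (edgeR quasi-likelihood test; 1.65% higher and 0.477% lower). At an unadjusted p below 0.05 the count was also 0 of 9, against 26.7% of all genes. DESeq2 called 1 member, Bnip3l, lower in HADA Tregs, where it called 10.2% of all genes lower. The fitted difference was above 0 for 6 members and below 0 for 3, with a median log2 fold change of 0.73 over the members and 0.01 over all genes. P4ha1, Ndrg1 and Pdk1 had the highest fitted values, and Bnip3l the lowest. For all 9 the groups overlapped in TMM-scaled CPM, whereas they did not overlap for 14.8% of all genes.

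**Figure D1:**
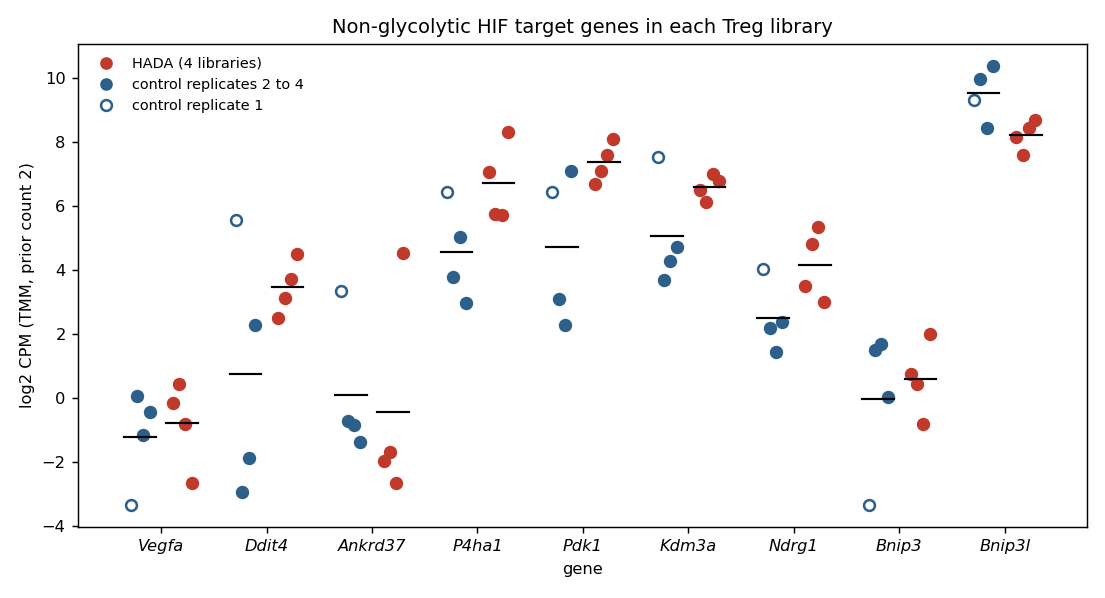
Level of the 9 tested genes in each library, as log2 CPM (TMM scaling, prior count of 2) on the vertical axis, with 1 point per library, control on the left and HADA on the right of each gene, and lines at the group means. Control replicate 1 is drawn open and is the highest control for 5 of the 9 genes, and no gene has groups that do not overlap.

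The promoters of the 4 members that were past the thresholds under at least 1 setting are shown first, so that the presence or absence of the motif that HIF binds can be read in them. Bnip3l was lower with DESeq2, as 10.2% of all genes were, and under a subtraction of receptor reads described below, as 1.11% were. P4ha1, Ndrg1 and Kdm3a were higher only without control replicate 1, where 15.5% (edgeR) or 17.6% (DESeq2) of all genes were higher. Each promoter is the 250 bases before the start of the canonical transcript, read from GRCm39 with GENCODE vM39, with matches to ACGTG or GCGTG on either strand (CACGT or CACGC on the other) in capitals. The Bnip3l promoter is chr14:67246335-67246584 on the minus strand, that of P4ha1 chr10:59158842-59159091 on the plus strand, that of Ndrg1 chr15:66841803-66842052 on the minus strand, and that of Kdm3a chr6:71609975-71610224 on the minus strand.
Bnip3l: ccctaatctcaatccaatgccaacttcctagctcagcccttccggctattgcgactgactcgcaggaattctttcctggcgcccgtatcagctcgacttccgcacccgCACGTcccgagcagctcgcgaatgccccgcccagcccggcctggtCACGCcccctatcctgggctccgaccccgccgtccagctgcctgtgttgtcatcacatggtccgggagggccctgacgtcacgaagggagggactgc
P4ha1: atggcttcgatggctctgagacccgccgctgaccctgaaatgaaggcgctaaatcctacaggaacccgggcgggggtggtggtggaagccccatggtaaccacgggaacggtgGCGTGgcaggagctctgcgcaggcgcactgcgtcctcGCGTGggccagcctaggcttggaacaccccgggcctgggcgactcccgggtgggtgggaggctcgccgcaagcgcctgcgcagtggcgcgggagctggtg
Ndrg1: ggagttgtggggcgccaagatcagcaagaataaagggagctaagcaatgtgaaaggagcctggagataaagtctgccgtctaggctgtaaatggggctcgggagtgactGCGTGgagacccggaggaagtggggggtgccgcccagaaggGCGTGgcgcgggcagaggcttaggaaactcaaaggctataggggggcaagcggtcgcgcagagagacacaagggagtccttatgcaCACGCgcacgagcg
Kdm3a: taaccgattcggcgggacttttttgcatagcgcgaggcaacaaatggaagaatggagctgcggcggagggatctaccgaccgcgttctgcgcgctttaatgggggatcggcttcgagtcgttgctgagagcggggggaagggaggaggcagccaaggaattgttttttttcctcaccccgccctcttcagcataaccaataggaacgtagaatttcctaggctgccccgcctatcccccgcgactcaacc
Bnip3l held 1 match of each motif, 140 and 95 bases before the start. P4ha1 held 2 matches to GCGTG, 135 and 98 bases before the start, and Ndrg1 held 3, at 139, 98 and 12 bases. Kdm3a held none in this window. Over the 10 members, 7 (70%) held either motif, among them Adm, Ddit4, Ankrd37 and Bnip3, against 41.3% of 21631 promoters of the same length, and 4 held ACGTG against 17.0%. Matches can overlap, as in CACGCGTG of the Ankrd37 promoter, and a match is a string of letters and not a binding site.

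The members with a role outside the cell are Vegfa and Adm. Vegfa encodes the growth factor that drives vessel sprouting (ENSMUSG00000023951, chr17:46327919-46343295, minus strand, GRCm39). It had 0, 30, 10 and 11 counts in control replicates 1 to 4 and 20, 30, 8 and 1 in HADA replicates 1 to 4. These are 0 to 0.94 CPM in control and 0.06 to 1.26 CPM in HADA, so that the groups lay over each other at a level near the limit of counting. In control replicate 1 a count of 0 allows up to 1.86 CPM, above the level of Vegfa in any of the other 7 libraries. The log2 fold change was 0.16 ± 0.79 (SE, edgeR adjusted p = 0.897, 95% interval -1.55 to 1.87).

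Adm encodes adrenomedullin, a vasodilator peptide (ENSMUSG00000030790, chr7:110226868-110229027, plus strand). All 8 libraries listed it at 0, and 1 other gene, Gm28863, lies over 100% of its span. Counting was over whole gene spans, so that reads in a stretch shared by several genes could be given to none of them, and a 0 here does not measure the gene. Of 12 receptors and relatives of these ligands, 11 were tested and none was past the thresholds (8 above 0, median log2 fold change 1.23). Ramp1 and Ramp2, which pair with the adrenomedullin receptor Calcrl or its relatives, had the smallest p-values of the group. Ramp2 was at 0.58 to 1.24 CPM in control and 1.38 to 3.16 CPM in HADA, with a log2 fold change of 1.29 ± 0.56 (SE, edgeR adjusted p = 0.171). Ramp1 was at 3.19 to 63.4 CPM in control and 45.1 to 160 CPM in HADA, with a log2 fold change of 2.27 ± 1.04 (SE, edgeR adjusted p = 0.187). Both were compared with the density of reads on olfactory and vomeronasal receptor genes, described with the plot of counts over that density. In control replicates 2 to 4 Ramp2 was at 0.27 to 0.48 times this density and Ramp1 at 0.38 to 0.67 times. In HADA Ramp2 was at 3.21 to 5.14 times and Ramp1 at 12.0 to 58.8 times.

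Ddit4 encodes REDD1, which restrains mTORC1 through the TSC complex (ENSMUSG00000020108, chr10:59785491-59787656, minus strand). Control replicates 1 to 4 had 47.2, 0.03, 0.17 and 4.75 CPM and HADA replicates 1 to 4 had 5.48, 8.67, 13.1 and 22.4 CPM. Every HADA library was above control replicates 2 to 4 and below control replicate 1. The group means were 13.0 ± 22.9 CPM in control and 12.4 ± 7.37 CPM in HADA (SD, n = 4 each), and the log2 fold change was -0.03 ± 1.48 (SE, edgeR adjusted p = 0.990). Without control replicate 1 it was 3.02 (edgeR adjusted p = 0.136) or, with DESeq2, 3.06 (adjusted p = 0.0736), so that 1 library decides whether the fitted value lies near 0 or near 3. The 76 counts of Ddit4 in control replicate 1 came from a total of 1477431, and control replicates 2 and 3 had 1 and 5 counts. None of the 8 other genes of this brake was past the thresholds (4 above 0, median 0.27). Sesn2, a sestrin that restrains mTORC1 on amino acid shortage, had the smallest p among them, with a log2 fold change of 2.64 ± 1.29 (SE, edgeR adjusted p = 0.204). That value rests on HADA replicate 3 at 28.8 CPM, since the other HADA libraries were at 0.54 to 0.75 CPM and the controls at 0.62 to 2.19 CPM. Ddit4l, the paralog of Ddit4, was at 0 to 1.13 CPM in all libraries, with a log2 fold change of -0.69 ± 0.82 (SE, edgeR adjusted p = 0.572).

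Pdk1 encodes a kinase that switches off the pyruvate dehydrogenase complex and so keeps pyruvate out of the mitochondrion's citrate cycle (ENSMUSG00000006494, chr2:71703568-71734202, plus strand). Control replicates 1 to 4 had 85.1, 8.42, 4.79 and 134 CPM, and HADA replicates 1 to 4 had 102, 136, 191 and 273 CPM. Control replicates 2 and 3 were far below the rest, and control replicate 4 lay between the lowest HADA library and the next. The log2 fold change was 1.595 ± 1.02 (SE, edgeR adjusted p = 0.303), and 4 of 4 HADA libraries exceeded the mean of the controls. Without control replicate 4 the value was 2.48, and over the 8 fits with 1 library left out it was 1.21 to 2.48. The interval, -0.62 to 3.81, leaves room for no difference and for a large one. Of 10 other genes of pyruvate dehydrogenase control none was past the thresholds (7 above 0, median 1.74). Mpc1, a subunit of the mitochondrial pyruvate carrier, had 0.98 to 11.8 CPM in control and 15.003 to 46.0 CPM in HADA, groups that did not overlap, as in 9.13% of all genes in that direction, with a log2 fold change of 2.28 ± 0.94 (SE, edgeR adjusted p = 0.158). Pdp2, a phosphatase that opposes Pdk1, had 52.2 to 1175 CPM in control and 0.47 to 150 CPM in HADA (log2 fold change -3.19 ± 1.31, edgeR adjusted p = 0.158). The 3 paralogs of Pdk1 did not share 1 direction. Pdk2 had a log2 fold change of 2.36 ± 1.70 (SE, edgeR adjusted p = 0.352), with 0.43, 0.17, 17.2 and 49.0 CPM in HADA replicates 1 to 4 and 0.17 to 13.0 CPM in control. Pdk3 had -1.21 ± 1.04 (SE, edgeR adjusted p = 0.435). Pdk4 had -1.20 ± 0.68 (SE, edgeR adjusted p = 0.252) at 0 to 4.01 CPM in all libraries. Without control replicate 1 it was -1.34 and past the thresholds (edgeR adjusted p = 0.0306), where 4732 of 24048 genes were lower. In control replicates 2 to 4 Pdk4 was at 0.82 to 0.93 times the density of reads on olfactory and vomeronasal receptor genes. It was at 0 in control replicate 1 and at 0.80 to 1.73 times in HADA. That measure is described with the plot of counts over the density. With all receptors, Pdk4 was below the density in all 8 libraries.

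P4ha1 encodes the catalytic subunit of a prolyl 4-hydroxylase that lets collagen chains fold (ENSMUSG00000019916, chr10:59159118-59209126, plus strand). It had 85.8, 13.7, 32.3 and 7.65 CPM in control replicates 1 to 4 and 131, 53.5, 52.2 and 318 CPM in HADA replicates 1 to 4. Control replicate 1 was above HADA replicates 2 and 3, and the other controls were below every HADA library. The group means were 34.9 ± 35.5 and 139 ± 125 CPM (SD, n = 4 each), with a log2 fold change of 2.002 ± 0.98 (SE, edgeR adjusted p = 0.204). Without control replicate 1 it was 3.10 and past the thresholds (edgeR adjusted p = 0.0393), as 15.5% of all genes were in that direction. Without HADA replicate 4, the highest library, it was 1.27. P4ha2, its closest paralog, had 1.04 to 3.04 CPM in control and 1.62 to 4.06 CPM in HADA, with a log2 fold change of 0.64 ± 0.59 (SE, edgeR adjusted p = 0.462). Of 8 genes of collagen hydroxylation, 7 were tested and none was past the thresholds (4 above 0, median 0.32). Plod2, a lysyl hydroxylase and itself a known HIF target, had 11.4 to 20.6 CPM in control and 2.83 to 4.86 CPM in HADA, the opposite order to P4ha1 and without overlap, as in 5.70% of all genes in that direction (log2 fold change -2.01 ± 0.68, edgeR adjusted p = 0.116). In 7 of 8 libraries, all but control replicate 1, Plod2 was at 0.77 to 0.95 times the density of reads on olfactory and vomeronasal receptor genes, a measure described with the plot of counts over that density.

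Kdm3a encodes a histone H3 lysine 9 demethylase of the JmjC family, enzymes that use oxygen (ENSMUSG00000053470, chr6:71565956-71609974, minus strand). Control replicate 1 had 182 CPM, and control replicates 2 to 4 had 12.8, 19.4 and 26.4 CPM. The HADA libraries had 89.9, 70.03, 127 and 110 CPM, between these levels and with the smallest relative spread of the members in HADA. The log2 fold change was 0.73 ± 0.92 (SE, edgeR adjusted p = 0.599). Without control replicate 1 it was 2.47 ± 0.59 and past the thresholds (SE, edgeR adjusted p = 0.0196), as 15.5% of all genes were in that direction. The library left out rests on 293 counts of Kdm3a. None of 8 other JmjC demethylases was past the thresholds (5 above 0, median 0.75). Kdm4b, a demethylase of lysine 9 and lysine 36, had the smallest p among them, with 2.26 to 10.6 CPM in control and 9.32 to 24.9 CPM in HADA (log2 fold change 1.99 ± 0.81, edgeR adjusted p = 0.153). Kdm4b was at 0.15 to 0.16 times the receptor density in control replicates 2 to 4 and 2.98 times in control replicate 1. In HADA it was at 2.16 to 5.13 times, or 1.01 to 1.90 times with all receptors. The closest paralog, Kdm3b, had 14.0 to 85.1 CPM in control and 61.7 to 190 CPM in HADA, with a log2 fold change of 0.95 ± 0.79 (SE, edgeR adjusted p = 0.420).

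Ndrg1 encodes a cytoplasmic stress-responsive protein of the alpha/beta hydrolase fold (ENSMUSG00000005125, chr15:66801167-66841489, minus strand). It had 16.2, 4.48, 2.59 and 5.04 CPM in control replicates 1 to 4 and 11.1, 27.9, 39.9 and 7.82 CPM in HADA replicates 1 to 4. As for P4ha1, the HADA libraries lay above control replicates 2 to 4, and control replicate 1 lay among them. The log2 fold change was 1.65 ± 0.89 (SE, edgeR adjusted p = 0.237), 3.14-fold. Without control replicate 1 it was 2.56 and past the thresholds (edgeR adjusted p = 0.0328), as 15.5% of all genes were in that direction. Ndrg3, a paralog, had the smallest p of its family, with 10.2 to 54.1 CPM in control and 42.1 to 133 CPM in HADA (log2 fold change 1.88 ± 0.84, edgeR adjusted p = 0.179). None of the 4 genes of this family and its kinase Sgk1 was past the thresholds (4 above 0, median 0.84). In Ddit4, P4ha1, Kdm3a and Ndrg1 every HADA library was above control replicates 2 to 4, which is 4 of 9 members against 18.4% of all genes without control replicate 1. The 3 that passed the thresholds without that library, P4ha1, Kdm3a and Ndrg1, also passed there with DESeq2, which called 17.6% of all genes higher.

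**Figure D2:**
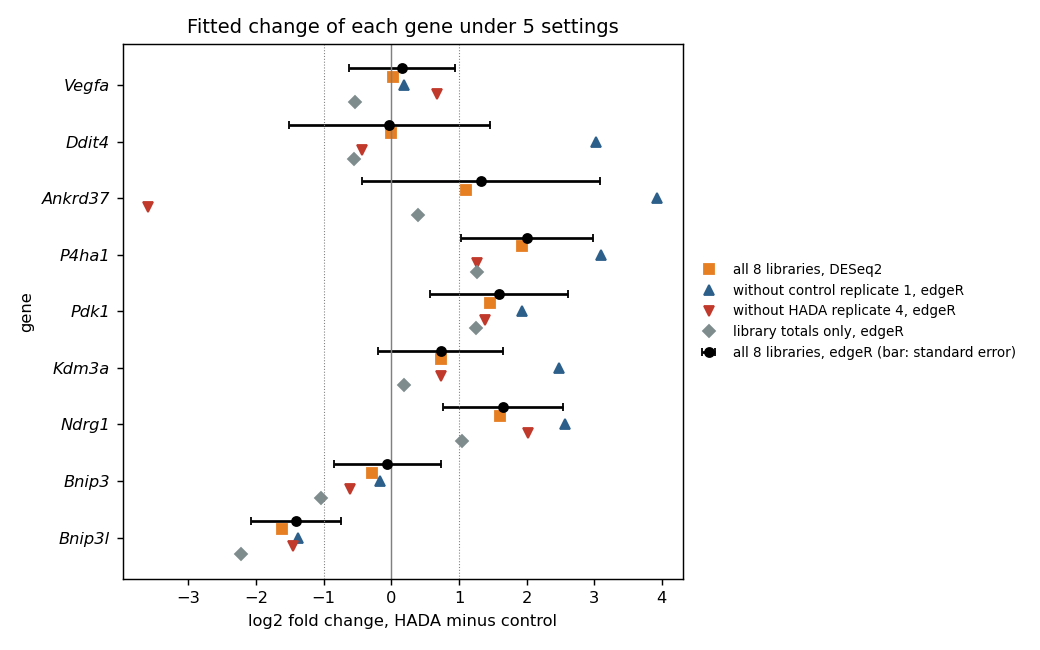
Fitted log2 fold change of HADA minus control (horizontal axis) for each of the 9 tested genes under 5 settings, with the standard error drawn for edgeR on all 8 libraries and dotted lines at the fold threshold. Leaving out control replicate 1 moves Ddit4 from -0.03 to 3.02 and Kdm3a from 0.73 to 2.47, leaving out HADA replicate 4 moves Ankrd37 from 1.33 to -3.60, and Bnip3l stays below -1 under all 5.

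Ankrd37 encodes a small ankyrin repeat protein whose function is little known (ENSMUSG00000050914, chr8:46449939-46458744, minus strand). It had 16, 16, 13 and 5 counts in control replicates 1 to 4 and 4, 5, 1 and 382 counts in HADA replicates 1 to 4. In CPM, HADA replicate 4 stood at 23.0 and control replicate 1 at 9.94, and the other 6 libraries were between 0.06 and 0.50. The log2 fold change of 1.33 ± 1.75 (SE, edgeR adjusted p = 0.615) rests on HADA replicate 4, and without it the value was -3.60 (edgeR adjusted p = 0.199). Ufsp2 and Lrp2bp cover 73.4% of its span, so that only the remainder of the gene could be counted unambiguously. DESeq2 gave the gene no adjusted p.

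Bnip3 and Bnip3l encode paired receptors of the outer mitochondrial membrane that recruit the autophagy machinery, and Bnip3l, also called NIX, clears mitochondria from maturing red cells. Bnip3 (ENSMUSG00000078566, chr7:138492565-138511248, minus strand) had 0, 2.69, 3.11 and 0.93 CPM in control replicates 1 to 4 and 1.58, 1.26, 0.47 and 3.91 CPM in HADA replicates 1 to 4. The groups lay over each other, and the log2 fold change was -0.06 ± 0.79 (SE, edgeR adjusted p = 0.964). Gm45507 and Gm18258 cover 24.4% of its span.

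Bnip3l (ENSMUSG00000022051, chr14:67222688-67246326, minus strand) was the most abundant member. It had 631, 999, 347.4 and 1320 CPM in control replicates 1 to 4 and 284, 194, 346.95 and 412 CPM in HADA replicates 1 to 4. HADA replicate 3 lay just below control replicate 3, the lowest control, and HADA replicate 4 lay above it. The means were 824 ± 425 CPM in control and 309 ± 93.1 CPM in HADA (SD, n = 4 each), with 4 of 4 HADA libraries below the control mean. The log2 fold change was -1.41 ± 0.67, 2.66-fold lower (SE, edgeR adjusted p = 0.194, 95% interval -2.87 to 0.04). By DESeq2 it was -1.62 and past the thresholds (adjusted p = 0.0445). Scaled by the library total alone, the levels were 202 to 258 CPM in HADA and 440 to 2209 CPM in control, and Bnip3l was then the only member whose groups did not overlap, against 6.92% of all genes lower in that way.

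Red cell markers were measured beside Bnip3l. The summed level of 7 erythroid markers, globins included, was 28367, 1029, 4143 and 7310 CPM in control replicates 1 to 4 and 2807, 999.6, 146 and 173 CPM in HADA replicates 1 to 4 (p = 0.0571 by an exact permutation test, two-sided). Alas2, one of the 7, was at 0 throughout, with other genes over 100% of it. The 6 tested markers all had a negative fitted value and none was past the thresholds, with a median log2 fold change of -3.65. The orders differed within the controls: replicate 1 had the highest erythroid sum and 631 CPM of Bnip3l, and replicate 4 had the highest Bnip3l. The part of red cell RNA in the level of Bnip3l was not tested.

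**Figure D3:**
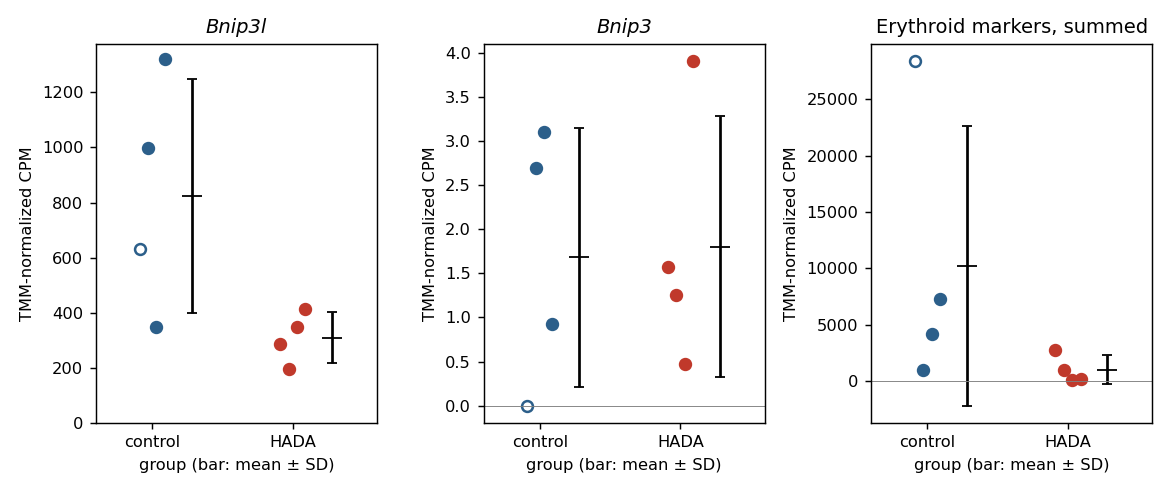
TMM-normalized CPM of Bnip3l, of Bnip3 and of the summed erythroid markers (vertical axes, linear) in the 4 control and 4 HADA libraries, 1 point per library with control replicate 1 drawn open, and bars for mean and SD. Bnip3l was 347.4 to 1320 CPM in control and 194 to 412 CPM in HADA, and the erythroid sum was 1029 to 28367 and 146 to 2807 CPM.

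Of 15 further genes of mitophagy none was past the thresholds (11 above 0, median 1.92). Bcl2, whose protein binds Beclin and holds autophagy back, had 40.2 to 195 CPM in control and 331 to 467 CPM in HADA (log2 fold change 2.04 ± 0.71, edgeR adjusted p = 0.119). The groups of Bcl2 did not overlap, as in 9.13% of all genes in that direction. Bcl2l1, its relative that red cell precursors depend on, had 10.3 to 1132 CPM in control and 12.5 to 104 CPM in HADA (log2 fold change -3.14 ± 1.21, edgeR adjusted p = 0.141). Map1lc3a, an LC3 protein of the autophagosome, was at 0 to 0.28 CPM in control and 0 to 21.0 CPM in HADA, a log2 fold change of 5.89 ± 1.68 (SE, edgeR adjusted p = 0.0823).

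Among 25 other HIF targets outside glycolysis, 22 were tested and 1, Stc2, was past the thresholds, against 1.65% of all genes higher in HADA. Stc2 encodes stanniocalcin 2, a secreted glycoprotein. It had 0, 1.22, 1.29 and 0.87 CPM in control replicates 1 to 4 and 31.2, 44.9, 33.8 and 37.1 CPM in HADA replicates 1 to 4. The groups were far apart and HADA libraries were close to each other, with a log2 fold change of 5.30 ± 0.97 (SE, edgeR adjusted p = 0.0215). Stc2 was at 0.29 to 0.37 times the receptor density in control replicates 2 to 4, and at 30.6 to 51.7 times in HADA. It stayed past the thresholds under 9 of 17 other settings, DESeq2 among them. It was not past them with library totals in place of TMM, with the density of all receptors subtracted, after drawing libraries down to the smallest total, with the replicate number as a block, or without control replicate 2, 3 or 4 or HADA replicate 1 (edgeR adjusted p = 0.0513 to 0.568), and it was filtered out at 10 counts in every library. Hmox1, heme oxygenase, which breaks down heme, had 0.23 to 3.73 CPM in control and 46.5, 18.2, 0.30 and 32.0 CPM in HADA replicates 1 to 4 (log2 fold change 4.17 ± 1.35, edgeR adjusted p = 0.106). Egln3, the prolyl hydroxylase that HIF itself induces, had 0.62 to 6.04 CPM in control and 13.7 to 24.0 CPM in HADA (log2 fold change 2.42 ± 0.82, edgeR adjusted p = 0.115). The groups of Egln3 did not overlap, as in 9.13% of all genes in that direction. In control replicates 1 to 4 Egln3 was at 0.50 to 0.73 times the receptor density. In HADA it was at 7.82 to 13.0 times, or 3.49 to 4.83 times with all receptors. Car12, a carbonic anhydrase, had 3.36 to 26.7 CPM in control and 1.503 to 2.35 CPM in HADA (log2 fold change -2.41 ± 0.80, edgeR adjusted p = 0.113). It was at 0.34 to 0.58 times the receptor density in 7 libraries and above it in control replicate 1, which held the 26.7 CPM.

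Of the 7 genes of oxygen sensing, Hif1a was at 0 throughout, with other genes over 100% of it, and none of the 6 tested was past the thresholds (5 above 0, median 1.501). Epas1, the HIF2 alpha subunit, had 1.24, 15.1, 6.92 and 123 CPM in control replicates 1 to 4 and 3.07 to 5.99 CPM in HADA (log2 fold change -3.08 ± 1.22, edgeR adjusted p = 0.147). It was below the receptor density in 7 libraries, all but control replicate 4. The 17 glycolytic targets, none past the thresholds, had a median log2 fold change of 0.84, near that of the members at 0.73. Gapdh, a glycolytic dehydrogenase, had the smallest p among them, with 0.44 to 3.49 CPM in control and 5.73 to 12.6 CPM in HADA (log2 fold change 2.15 ± 0.77, edgeR adjusted p = 0.125). In HADA it was at 19.3 to 37.5 times the receptor density, where Aldoa was at 536 to 3240 times. In control replicate 2 Gapdh was at 0.28 times. Whether reads of Gapdh were lost in counting was not tested. Over all 114 listed genes outside the members, 108 were tested, 1 was past the thresholds higher and 0 lower by edgeR, with 14 and 6 at an unadjusted p below 0.05. These are 13.0% and 5.56% of the listed genes, against 12.0% and 14.7% of all genes. For 14 of the 108 the groups did not overlap in TMM-scaled CPM, against 14.8% of all genes. DESeq2 called 11 higher and 6 lower, which is 9.73% and 5.31% of the 113 listed genes with a fitted value. Of the 32290 genes with an adjusted p it called 6.27% and 10.2%. These bases differ, since 41823 genes in all had a fitted value, of which 2026 and 3296 were called.

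**Figure D4:**
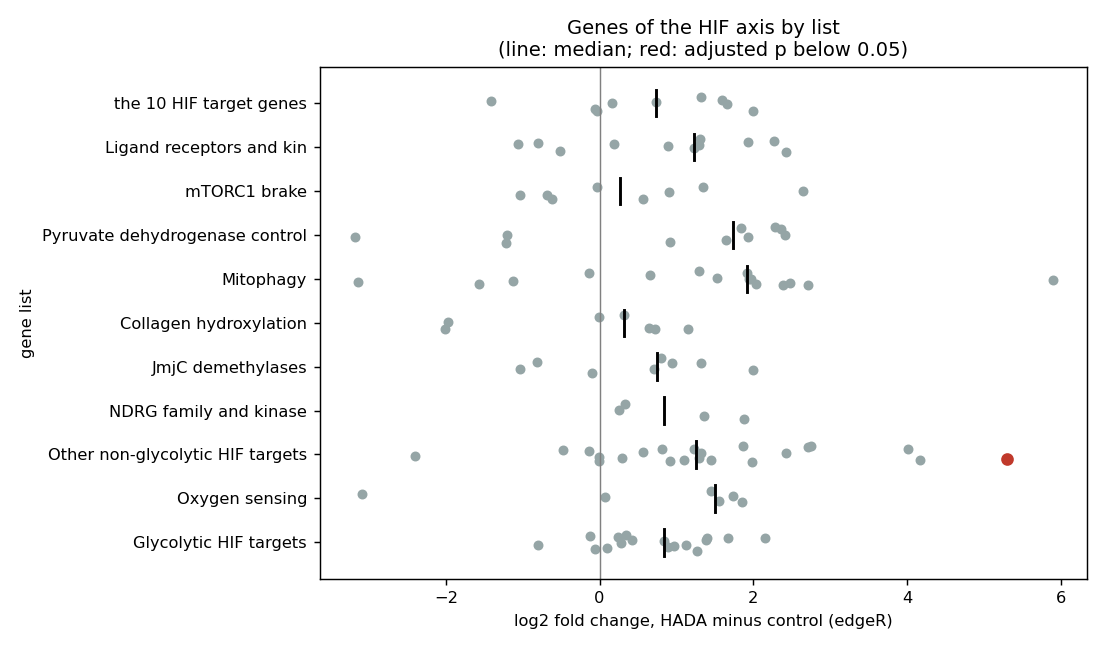
Fitted log2 fold change (horizontal axis) of every tested gene of the members and of 10 further lists of the HIF axis, 1 point per gene, with a line at each median and red for a gene past the thresholds. The medians run from 0.27 to 1.92, and Stc2 at 5.30 is the only gene drawn in red.

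Per kilobase of annotated exon, the order of the mean levels in HADA was Bnip3l at 56.2 ± 16.9 CPM per kilobase, P4ha1 at 21.4 ± 19.3, Pdk1 at 19.9 ± 8.49, Kdm3a at 8.82 ± 2.20, Ddit4 at 4.58 ± 2.71, Ankrd37 at 3.12 ± 6.09, Ndrg1 at 2.90 ± 2.01, Bnip3 at 0.418 ± 0.342 and Vegfa at 0.150 ± 0.118 (SD, n = 4). P4ha1 and Pdk1 differed by less than their spread, and so did Ddit4, Ankrd37 and Ndrg1, and Bnip3 and Vegfa. In control Tregs Bnip3l led at 150 ± 77.1 CPM per kilobase, and Pdk1 at 6.60 ± 7.13, P4ha1 at 5.38, Kdm3a at 5.35 and Ddit4 at 4.81 were within the spread of each other. Per kilobase of whole span the order changed below Bnip3l, with Bnip3l at 13.1, Ddit4 at 5.74, Pdk1 at 5.73, P4ha1 at 2.77 and Kdm3a at 2.25 CPM per kilobase in HADA, and Bnip3l at 34.9, Ddit4 at 6.02 and Pdk1 at 1.90 in control. These lengths hold exons only while the counts also hold introns, and the exons annotated for Ddit4 are longer than its deposited span.

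A measure meant for reads that do not come from a gene's own transcripts was taken from 1393 olfactory and vomeronasal receptors free of overlapping genes. Whether the sorted cells use some of these receptors was not tested, so the density may also hold receptor transcripts. After the 5% with the highest density were left out, these genes had 0.0351 to 0.0861 CPM per kilobase (scaled by library totals) in the HADA libraries, 0.0503 in control replicate 1, and 0.731, 0.361 and 0.148 in control replicates 2 to 4. Over all 1393 receptors the densities were 0.0753 to 0.193 in HADA, 0.0537 in control replicate 1, and 0.745, 0.365 and 0.161 in control replicates 2 to 4, so that leaving out the densest receptors lowered the HADA values more than those of the controls. Control replicate 4 lay within the HADA range with all receptors and above it with the trimmed density. The values below use the trimmed density unless stated. Vegfa was below this density in all 8 libraries, and Bnip3l was above it in all 8, at 51.7 to 578 times. In control replicates 2, 3 and 4, 8, 6 and 5 of the 9 tested members were below it, whereas in the HADA libraries 1 to 3 were, and in control replicate 1, 2 were, with either density. Of the members that lay above control replicates 2 to 4 in every HADA library, P4ha1, Kdm3a and Ndrg1 were at 0.236 to 3.24 times the density in those controls, and Ddit4 was at 0.0437, 0.284 and 11.9 times. Kdm3a stood at 0.879, 1.55 and 3.24 times the density in control replicates 2 to 4, at 89.6 times in control replicate 1, and at 19.2 to 45.7 times in HADA, or 8.58 to 20.7 times with all receptors. Ndrg1 was at 0.351, 0.236 and 0.708 times in control replicates 2 to 4, 9.09 times in control replicate 1 and 3.60 to 16.4 times in HADA, or 1.37 to 6.07 times with all receptors. Of the listed genes, control replicates 2 to 4 held Ndrg3 at 0.56 to 0.96 times, Hmox1 at 0.18 to 0.67, Mpc1 at 0.33 to 3.13 and Bcl2 at 0.86 to 3.24. HADA held Ndrg3 at 7.89 to 36.8 times, Hmox1 at 0.67 to 83.5, Mpc1 at 22.7 to 55.2 and Bcl2 at 28.4 to 59.0. With the density over all 1393 receptors subtracted from every gene's counts, Bnip3l had a log2 fold change of -2.94 and no member was past the thresholds (edgeR adjusted p = 0.0678, 1.10% of all genes lower). With the trimmed density, a setting added after seeing the data, it was -2.71 and past the thresholds (edgeR adjusted p = 0.0441, 1.11% of all genes lower), while the median of all genes was 1.33. The part of these reads in the difference between the groups was not tested otherwise.

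**Figure D5:**
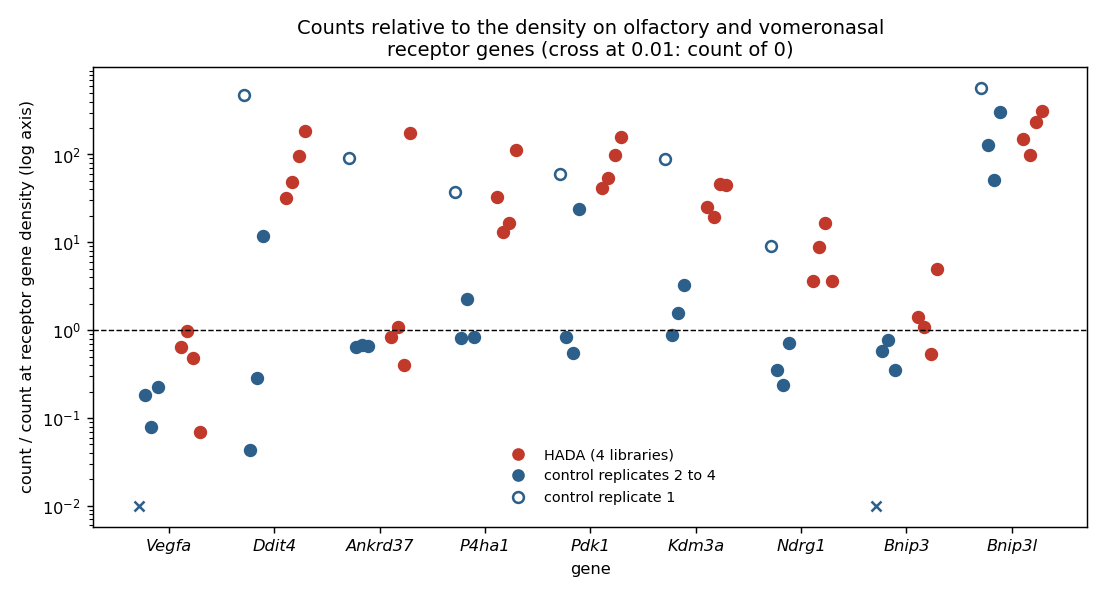
Count of each gene divided by the count its span would hold at the density of reads on the receptor genes (vertical axis, log scale, dashed line at 1), in each of the 8 libraries, with crosses at the bottom for a count of 0. Vegfa lies below 1 in every library, Bnip3l above 1 in every library, and in control replicate 2 the other 7 genes also lie below 1.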

How the data were processed

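RNA-seq was performed on Tregs sorted from peripheral blood, with 4 HADA and 4 control libraries grouped and numbered from their labels. Per the labels and the methods, the authors used FastQC, Trimmomatic, STAR, GRCm39 and featureCounts, and deposited raw read counts per gene. Strand and multi-mapping settings are not given in the sources used here. The deposited length equals the whole gene span, so that introns were counted and reads in shared stretches could be lost. Names came from GENCODE vM39, which holds 56236 of the 56980 identifiers (98.7%), and coordinates are those of the deposited table.

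Counts were tested with edgeR 4.0.16 (TMM, filterByExpr, quasi-likelihood test, no covariates) in R 4.3.3, and the methods of the study name DESeq2 1.42.0, which was run as an alternative. Thresholds were a Benjamini-Hochberg adjusted p below 0.05 over all genes tested and a log2 fold change beyond 1. Marker lists and totals went through exact permutation tests (two-sided), and the prior count for log2 CPM was 2. A count of 0 was read as allowing up to 3 counts, for counting error only. Promoters were the 250 bases before canonical starts.

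The members and lists were chosen with earlier results of these data known. Named were all members, every listed gene past the thresholds, up to 3 further genes by smallest p in each list, and close paralogs. Alternatives were other scalings and filters, libraries drawn down to 1477431 counts, a background of reads on receptor genes subtracted, the replicate number as a block, no fold threshold, span as length and each library left out. The subtraction without the densest 5% of receptor genes and DESeq2 without control replicate 1 were added after seeing the data. No 2 libraries had identical counts. The tests were run on simulated data. The check that had to pass used a spread between libraries (dispersion) below the 0.805 fitted to these data. It therefore does not show what share of changed genes the tests can find here. PCR copies were not told apart, and the chromatin accessibility data were not analysed here.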

Additional observations from a re-analysis of the deposited data

Results flagged for a closer look

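In 3 of 32 groups of 4 values the highest or lowest library stood far from the other 3 by Dixon's criterion, where chance gives about 1.6. Ankrd37 was at a log2 CPM of 4.53 in HADA replicate 4, with the other HADA libraries at -2.66 to -1.70. The same gene was at 3.33 in control replicate 1, with the other controls at -1.36 to -0.74. The log2 of the total count was 20.5 in control replicate 1 and 23.8 to 24.4 in the other controls. What sets these libraries apart was not tested.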

How the results depend on the processing

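Of 148 refits of single members, 121 kept direction and side of the thresholds, 19 turned in direction and 8 newly passed, and the cause of these changes was not tested. With DESeq2, 2026 genes were higher and 3296 lower, with 1 member (Bnip3l, -1.62) lower and 11 and 6 listed genes higher and lower. With library totals, 206 and 180 genes, 0 and 2 listed genes were called, 53.4% of calls were higher against 77.6% with TMM, the median of all genes was -0.71, and Vegfa was -0.53. With DESeq2's size factors in edgeR Vegfa was -0.053. Without a filter 54 genes were lower, Ddit4 was 0.079 and Bnip3 0.35. At 10 counts in every library 93 genes, 0 and 2 listed genes were called higher and lower, 41.2% of calls being higher. In libraries drawn down to the smallest total 62 and 52 genes were called, and 0 listed genes were higher. With the receptor background subtracted, 97 genes and 0 listed genes were higher and no member was called (Bnip3l -2.94, edgeR adjusted p = 0.0678). With that subtraction made without the densest 5% of receptor genes, 905 genes and 4 listed genes were higher, and 1 member was lower (Bnip3l, -2.71). With DESeq2 without control replicate 1, 6028 and 6000 genes, 43 and 8 listed genes and 3 members were called (P4ha1 3.35, Kdm3a 2.63, Ndrg1 2.74), and Ddit4 was 3.06 and Bnip3 0.10.

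With each library left out in turn, 28 to 3716 genes were higher and 1 to 4732 lower, 0 to 3 members higher, and 0 to 29 and 0 to 5 listed genes higher and lower. The upper ends came without control replicate 1, and without control replicate 3 there were 28 and 1 genes. Log2 fold changes ranged from -0.23 to 0.67 (Vegfa), -0.46 to 3.02 (Ddit4), -3.60 to 3.93 (Ankrd37), 1.27 to 3.10 (P4ha1), 0.40 to 2.47 (Kdm3a), 1.27 to 2.56 (Ndrg1), -0.61 to 0.42 (Bnip3) -1.66 to -1.02 (Bnip3l) and 1.21 to 2.48 (Pdk1). Differences in summed markers were 1009 to 1611 CPM (T cell and Treg), -12242 to -3129 (erythroid), 723 to 1188 (platelet), 87.9 to 376 (cytotoxic and NK), 1633 to 2525 (myeloid) and 465 to 1330 (B cell, 859 with all libraries).

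Libraries with the same number correlated at -0.207, 0.252, -0.0805 and -0.00316 in their deviations, so that numbers only name them. With the replicate block 158 genes were called higher and 11 lower. In that fit 0 members and 0 listed genes were called higher, Vegfa was -0.063, Ddit4 3.76 and Ankrd37 -1.64. Vegfa, Bnip3 and Ankrd37 rest on few counts in most libraries, and Adm could not be measured.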
